A study of Mus musculus with 2 samples.

Results

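The TRIM family of ubiquitin ligases was described in nuclear RNA of lipid A-stimulated mouse macrophages. Its members were taken as the genes whose symbol is Trim, a number and at most 1 further letter, and which have at least 1 protein-coding transcript in the annotation. That gave 68 genes of the 55536 measured, of which 22015 are protein-coding genes of the nuclear genome. They lie on 15 chromosomes, 16 of them on chromosome 7, 11 on chromosome 11 and 6 on chromosome 17, and have 269 annotated transcripts. Members were chosen by name and not by any value.

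Total RNA depleted of ribosomal RNA was sequenced from the nucleoplasm of bone marrow-derived macrophages of C57BL/6J mice, primary phagocytes grown from marrow progenitors. The cells had received 100 ng/ml lipid A, the membrane-anchoring moiety of bacterial lipopolysaccharide and a ligand of TLR4, during 12 h. A washout of 12 h followed, and then lipid A at 100 ng/ml again for 90 min. The study's libraries form 1 group of 2 replicates, the first made from 1 µg of RNA and the second from 500 ng. They are labelled biological replicates with 1 donor entry between them, so their spread may be technical. Sex and age are not given in the labels. With 1 group there is no comparison between conditions and no p-value, and no level below is an induction or a response.

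Most TRIM proteins share a RING finger, which recruits a ubiquitin-conjugating enzyme, then B-box zinc fingers and a coiled coil through which they dimerise. The carboxy-terminal domain differs between members and selects the substrate; in most it is a PRY-SPRY domain. Many members act in innate immunity, some as restriction factors against viruses and others as enhancers or brakes of the signalling from Toll-like receptors and cytosolic nucleic acid sensors, and many are interferon-stimulated genes. Others repress chromatin, bind microtubules or work in muscle, neurons or germ cells.

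Gene counts summed to 29400104 in replicate 1 and 17789543 in replicate 2. Levels are given as TPM (a length-normalised abundance, relative to all transcripts of the library) of the first of the deposited quantifications, in which nuclear protein-coding genes held 17.2% of all TPM in replicate 1 and 17.8% in replicate 2. Markers of the labelled cell type were present. All 8 macrophage genes of a marker list exceeded 1 TPM in each library. Their median level was 149 TPM, from Itgam at 36.3 ± 2.76 to Lyz2 at 899 ± 283 TPM (SD, n = 2). The summed TPM of T and NK cell, B cell, neutrophil, dendritic cell, stromal and endothelial, and muscle lists lay between 0.01 and 1.06 in either library, with Cd3e, Cd3g, Ly6g, Elane and Myh7 at 0 counts in both.

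Of the 68 members, 28 were at or above 1 TPM in both libraries, against 38.6% of all nuclear protein-coding genes. With TPM rescaled to protein-coding and long non-coding genes it was 43 members, against 48.1% of protein-coding genes. A further 3 reached 1 TPM on average, 37 stayed below, and 13 had no count in either library by this first quantification. In bulk RNA, fewer expressing cells and less RNA per cell cannot be told apart. The family summed to 673 TPM in replicate 1 and 712 TPM in replicate 2, which is 0.396% ± 0.00527 of the TPM of nuclear protein-coding genes (SD, n = 2). Most of it came from a few genes. Trim30a alone held 20.6% ± 2.17, the 3 highest members 41.7% ± 1.01 and the 10 highest 78.5% ± 1.25 of the family's TPM. The 16 members on a list of interferon-associated TRIM genes held 79.8% ± 1.79. That list was drawn from general knowledge of the family with earlier results of these libraries known, so its share is a description.

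**Figure D1:**
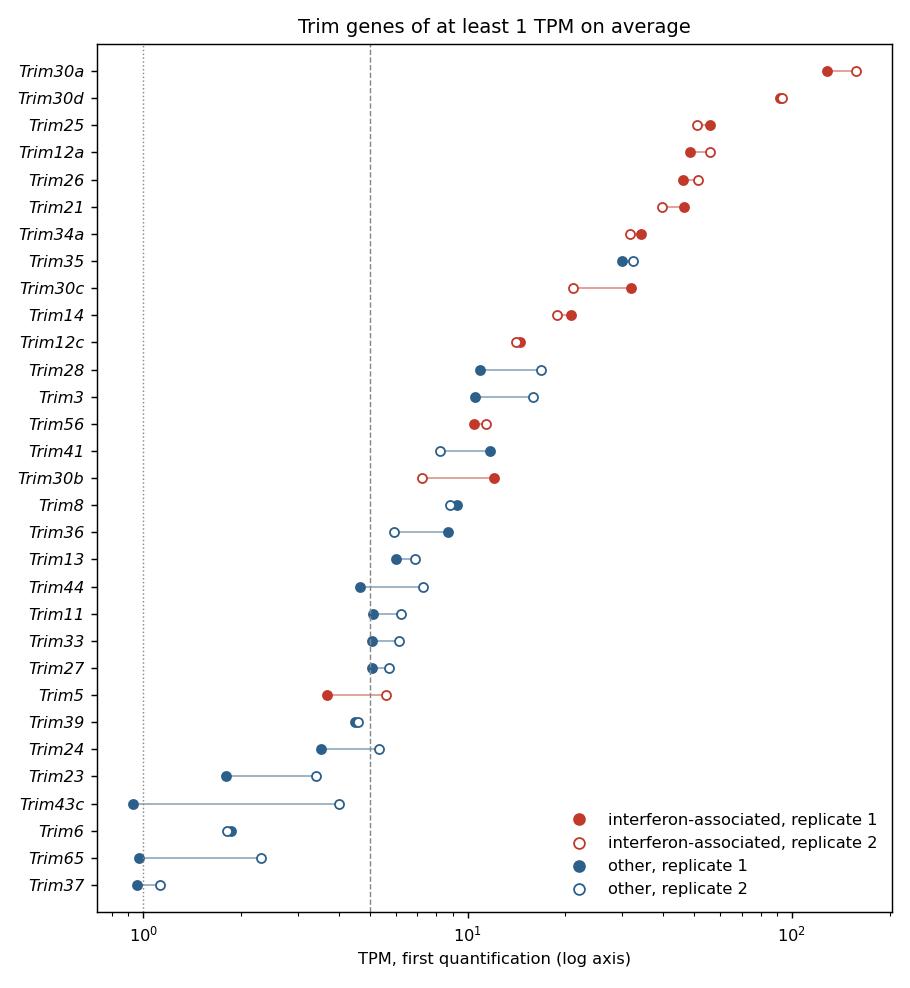
TPM of the 31 Trim genes of at least 1 TPM on average, on a log axis, ordered by mean; filled points are replicate 1, open points replicate 2, red marks interferon-associated genes, and the dotted and dashed lines stand at 1 and 5 TPM. The 7 genes with the highest mean are all red, from Trim30a at 143 to Trim34a at 33.0 TPM.

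On chromosome 7, 10 members stand side by side between positions 104218793 and 104507849 of mm10, a stretch of 289 kb with 7 genes on the minus and 3 on the plus strand. It is the mouse counterpart of the primate TRIM5 locus, whose TRIM5 protein restricts retroviral capsids. These genes held 54.6% ± 0.0207 of the family's TPM (SD, n = 2). Of the 10, 9 were at or above 1 TPM in both libraries, against 38.6% of nuclear protein-coding genes. Trim30a (chr7:104409025-104465193, minus strand), which in mice has been described to bring about degradation of TAB2 and TAB3 and so to limit NF-kB activation by Toll-like receptors, had 129 TPM in replicate 1 and 158 TPM in replicate 2. Its neighbour Trim30d (chr7:104470014-104507849, minus strand) had 91.9 and 93.3 TPM. These were the highest levels of the family and did not overlap those of any other member.

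The remaining genes of the cluster spanned a wide range. Trim12a, a mouse relative of primate TRIM5, had 48.6 TPM in replicate 1 and 55.8 TPM in replicate 2, and Trim34a had 34.4 and 31.7 TPM. Trim30c had 31.9 and 21.1 TPM, and its neighbour Trim30b had 12.0 and 7.22 TPM. Both were higher in replicate 1. Trim12c, another TRIM5 relative, had 14.5 and 14.1 TPM. Trim5 averaged 4.65 TPM and Trim6 1.84 TPM. Trim34b, the near copy of Trim34a, had 0.19 TPM (replicate 1) and 0.12 TPM (replicate 2), from 14.5 and 4.36 expected counts.

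**Figure D2:**
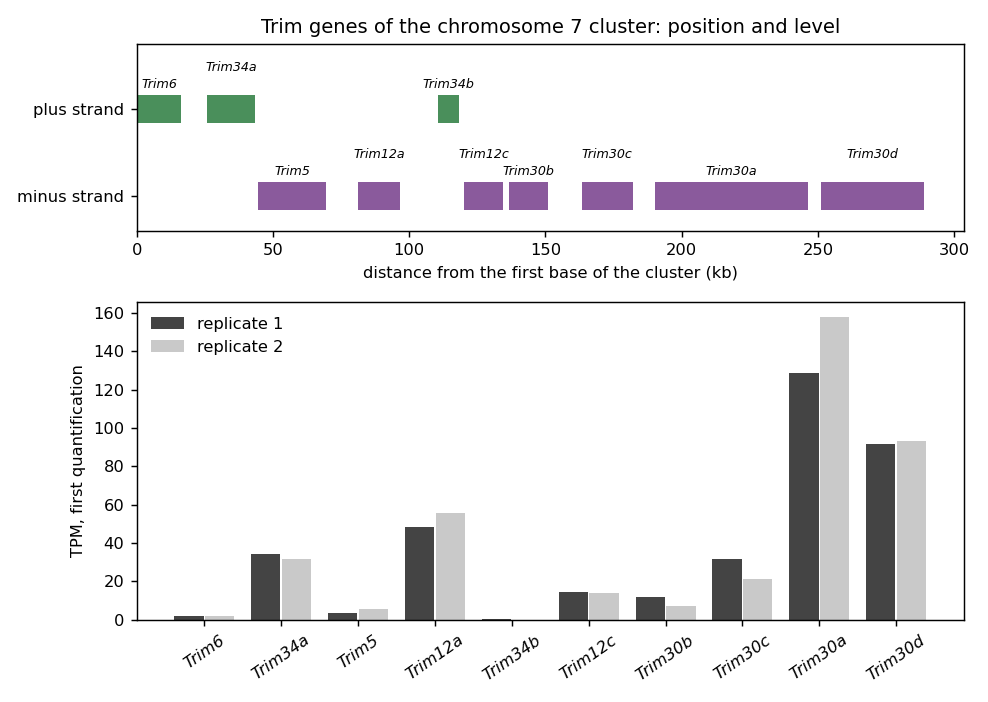
The upper panel maps the 10 Trim genes of the chromosome 7 cluster by strand and by distance in kb from its first base, and the lower panel gives the TPM of each in map order, dark bars for replicate 1 and light bars for replicate 2. The 2 highest, Trim30a and Trim30d, stand at the far end, and Trim34b is close to 0.

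Copies in the cluster are alike enough to share reads. Among all 31-base words of its annotated transcripts, Trim34b shared 69.1% with Trim34a, and Trim34a shared 48.7% with Trim34b. Trim5 shared 37.9% with Trim12c and 12.3% with Trim12a. Trim30a and Trim30d shared 8.53% and 9.19% of their words with each other, Trim30c shared 5.69% and Trim30b 4.60% with any other gene. The levels of Trim30a to Trim30d therefore rest mostly on sequence of their own, and those of Trim34a, Trim34b, Trim5 and Trim12c depend on how the authors' model split shared reads. Trim12a stood between, sharing 16.05% of its words with any other gene, so its level also depends in part on that split. The opening 90 coding bases of the transcripts below (GENCODE M21, mm10, chromosome 7) show how alike some of the copies are at their starts. Capitals mark each base that differs from the leading line of the set, which for the pairs is Trim30a or Trim34a and for the trio Trim5.
Trim30a-201: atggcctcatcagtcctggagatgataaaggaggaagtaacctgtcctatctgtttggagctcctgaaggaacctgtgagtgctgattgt
Trim30b-201: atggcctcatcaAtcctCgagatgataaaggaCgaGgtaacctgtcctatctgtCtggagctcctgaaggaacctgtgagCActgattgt
Trim34a-203: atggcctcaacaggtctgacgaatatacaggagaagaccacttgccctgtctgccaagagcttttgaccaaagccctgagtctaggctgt
Trim34b-201: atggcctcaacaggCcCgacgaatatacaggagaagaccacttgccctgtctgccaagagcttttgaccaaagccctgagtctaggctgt
Trim5-202: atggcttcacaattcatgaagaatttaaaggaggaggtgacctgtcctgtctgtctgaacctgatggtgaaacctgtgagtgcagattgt
Trim12a-203: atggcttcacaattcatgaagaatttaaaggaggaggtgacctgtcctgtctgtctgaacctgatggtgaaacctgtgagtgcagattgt
Trim12c-201: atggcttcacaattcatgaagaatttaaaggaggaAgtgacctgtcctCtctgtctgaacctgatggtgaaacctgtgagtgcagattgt
Trim12a did not differ from Trim5 over these bases, Trim12c and Trim34b differed at 2 each, and Trim30b differed from Trim30a at 7 (92.2% identity). Of all members, 22 shared more than 5% of their words with another gene and 27 less than 1%. Shared words, and the whole counts given next, were read for members only, so no share of all genes stands beside them. Expected counts were not whole numbers (tolerance 0.005) for 11 members. In the cluster these were Trim30a, Trim30d, Trim12a, Trim34a, Trim12c, Trim5 and Trim34b, and outside it Trim14, Trim17, Trim43b and Trim43c.

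Outside the cluster, interferon-associated members followed. Trim25 (chr11:88999376-89020293, plus strand), which ubiquitinates and activates the RNA sensor RIG-I, had 55.7 TPM in replicate 1 and 51.1 TPM in replicate 2. Trim26, which acts on interferon beta signalling, had 46.3 and 51.3 TPM. Trim21, a cytosolic antibody receptor that destroys antibody-coated virus, had 46.6 and 39.7 TPM. The values of Trim26 overlapped those of both others, and those of Trim25 and Trim21 did not overlap. Trim14, which lacks a RING and serves as an adaptor of MAVS, had 20.9 and 18.8 TPM, and Trim56, an RNA-binding enhancer of antiviral signalling, had 10.5 and 11.4 TPM. Trim38 and Trim69 had at most 2 counts in either library by the first quantification. By the second, Trim38 had 6 and 9 estimated counts and Trim69 had 12 and 11. Trim14 overlaps Nans on the opposite strand and shares 30.4% of its words with it. Nans was at 1.92 and 2.46 TPM, and its part in the level of Trim14 was not tested.

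Short windows around the transcript starts of these genes were read for known motifs. RefSeq promoter windows (GRCm38.p6, 250 bases before to 50 after a transcript start) matched 53 of the 68 members, with 67 windows. An interferon-stimulated response element, the site of interferon regulatory factors and STAT complexes, was searched on both strands as GAAA, any 2 bases and GAAA. It was found in 9 of 17 windows of interferon-associated members, in 1 of 50 windows of the others, and in 3.44% of all 32851 mouse windows. By gene it was in 8 of 15, in 1 of 38 and in 1079 of 27025. The windows are not independent: Trim30a was counted more than once, and its windows and that of Trim30d have the same match in like flanks. Trim12a, Trim12c and Trim5 likewise share a match and its flanking bases. The 5 members of highest TPM with a match are shown, with the letters of each match in capitals. They are Trim30a (chr7:104465144-104465443), Trim30d (chr7:104507800-104508099), Trim12a (chr7:104315446-104315745) and Trim21 (chr7:102565433-102565732) on the minus strand, and Trim26 (chr17:36836896-36837195) on the plus strand.
Trim30a: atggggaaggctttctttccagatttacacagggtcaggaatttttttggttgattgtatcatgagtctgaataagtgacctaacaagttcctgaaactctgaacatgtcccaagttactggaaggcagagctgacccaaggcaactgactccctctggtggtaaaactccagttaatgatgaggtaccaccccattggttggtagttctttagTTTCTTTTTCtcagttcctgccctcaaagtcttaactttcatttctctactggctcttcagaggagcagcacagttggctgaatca
Trim30d: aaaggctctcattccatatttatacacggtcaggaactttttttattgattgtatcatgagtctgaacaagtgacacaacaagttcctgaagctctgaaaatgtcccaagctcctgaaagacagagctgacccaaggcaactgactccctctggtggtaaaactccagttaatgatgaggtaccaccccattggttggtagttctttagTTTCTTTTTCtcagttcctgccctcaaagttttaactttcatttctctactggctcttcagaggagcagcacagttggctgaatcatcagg
Trim12a: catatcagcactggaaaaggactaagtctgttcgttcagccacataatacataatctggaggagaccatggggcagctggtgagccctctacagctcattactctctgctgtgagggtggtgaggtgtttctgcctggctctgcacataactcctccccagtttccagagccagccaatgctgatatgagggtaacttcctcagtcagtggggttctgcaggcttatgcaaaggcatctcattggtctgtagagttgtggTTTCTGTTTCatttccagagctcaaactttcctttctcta
Trim26: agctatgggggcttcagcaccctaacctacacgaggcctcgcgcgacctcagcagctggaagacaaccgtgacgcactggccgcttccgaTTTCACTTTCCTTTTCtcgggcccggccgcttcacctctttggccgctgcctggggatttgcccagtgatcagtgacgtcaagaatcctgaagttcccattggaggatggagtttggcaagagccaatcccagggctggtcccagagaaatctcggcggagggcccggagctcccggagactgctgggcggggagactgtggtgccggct
Trim21: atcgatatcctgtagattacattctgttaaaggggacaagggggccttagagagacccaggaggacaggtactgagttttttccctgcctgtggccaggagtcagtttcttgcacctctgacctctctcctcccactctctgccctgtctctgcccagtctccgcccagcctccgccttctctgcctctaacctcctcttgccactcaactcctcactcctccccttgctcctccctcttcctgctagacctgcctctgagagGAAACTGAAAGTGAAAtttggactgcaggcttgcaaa
The match began 36 bases before the start in Trim30a and 41 before it in Trim30d, with the same letters GAAAAAGAAA on the opposite strand. In Trim26 the leading match began 160 bases before the start. In Trim12a and Trim21 the matches lie after the start, beginning at 10 and 13 bases. In Trim26 and in Trim21, 2 matches overlap to give a longer run. The other windows with a match belonged to Trim34a, Trim12c, Trim5 and, among genes off the interferon list, Trim2. No match was found for Trim25, Trim30b, Trim30c, Trim56, Trim34b, Trim38 and Trim69, which says only that these letters are not in these windows. A gamma-activated site (TTC, any 3 bases, GAA) was in 10.4% of TRIM windows and 8.30% of all, and an NF-kB motif (GGGA, any 2 bases, TTCC) in 1.49% of TRIM windows, that of Trim28 alone, and 1.47% of all.

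Among members off the interferon list, Trim35 was the highest. It is a PRY-SPRY member expressed in blood cells and had 30.02 TPM in replicate 1 and 32.35 TPM in replicate 2. Trim41, another PRY-SPRY member, had 11.7 and 8.20 TPM, Trim11 had 5.12 and 6.22 TPM, and Trim27 had 5.06 and 5.71 TPM. Trim41 overlaps Rack1, at 23.4 and 23.1 TPM, on the opposite strand but shares only 0.112% of its words with any gene. Trim39 averaged 4.56 TPM, Trim43c 2.46 TPM and Trim65, an enhancer of MDA5 signalling, 1.64 TPM.

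The TIF1 group, which carries a PHD finger and bromodomain and works on chromatin, had 3 of 4 members at or above 1 TPM in both libraries. Trim28, the corepressor of KRAB zinc finger proteins, had 10.9 TPM in replicate 1 and 16.8 TPM in replicate 2. Trim33, which binds SMAD proteins and modified histone H3, had 5.07 and 6.13 TPM, and Trim24 averaged 4.44 TPM. Trim66 had 7 counts in replicate 1 and 0 in replicate 2. Of 12 partners and relatives of this chromatin machinery, 11 were at or above 1 TPM in both libraries, against 38.6% of nuclear protein-coding genes. The remodeller Chd4 at 48.0 and 40.4 TPM and the deacetylase Hdac1 at 17.1 and 25.5 TPM were the highest, and Hdac2 at 2.67 and 4.91 and Uhrf1 at 0.96 and 0.91 TPM the lowest.

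The other domain classes differed in how many members were at or above 1 TPM in both libraries, against 38.6% of nuclear protein-coding genes. It was 1 of 5 for NHL and filamin repeats, 1 of 8 for the COS box and 2 of 6 with no listed carboxy-terminal domain. Of members without a RING it was 2 of 4, and of those with other carboxy-terminal domains 2 of 4. Of the NHL and filamin-repeat members only Trim3 reached 1 TPM in both libraries, with 10.6 TPM (replicate 1) and 15.9 TPM (replicate 2). Trim2 and Trim32, linked to nerve and muscle disease, and Trim45 stayed below 1 TPM on average, and Trim71, a stem cell regulator of mRNA, had no count by this quantification. Trim8, which enhances NF-kB signalling, had 9.29 and 8.81 TPM. The ER-anchored Trim13 had 6.02 and 6.90 TPM and overlaps Dleu2, at 56.1 and 46.7 TPM, on the opposite strand. Trim44, which has a ubiquitin-protease-type zinc finger in place of a RING, had 4.65 and 7.27 TPM. Trim23, with an ARF GTPase domain, averaged 2.61 TPM and Trim37 1.05 TPM. Of 8 members with a microtubule-binding COS box, only Trim36 was at or above 1 TPM, with 8.68 and 5.93 TPM. Trim54, Trim55 and Trim63, the muscle ligases known as MuRFs, had no count by this quantification.

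Members below 1 TPM, beside those already given, fell into the following groups. Those with 0 counts in both libraries were Trim31, Trim40, Trim42, Trim52, Trim54, Trim55, Trim58, Trim60, Trim61, Trim63, Trim67, Trim71 and Trim80. At these depths a 0, taken as at most 3 counts, leaves room for 0.102 CPM (replicate 1) or 0.169 CPM (replicate 2), where CPM is the count relative to all gene counts of the library. That bound holds for the first quantification: by the second, Trim67 had 171 estimated counts in replicate 1 and 254.6 in replicate 2, Trim71 had 54.2 and 97.4, Trim52 218 and 186, Trim63 58.2 and 138, and Trim58 4.01 and 18.2. Trim40 and Trim55 had at most 2 by the second, and the other 6 had none. Trim10, Trim9, Trim29, Trim50, Trim72, Trim75, Trim43a and Trim43b averaged at most 0.11 TPM. Among these are genes known from red cells (Trim10, Trim58), neurons (Trim9, Trim67) and muscle (Trim72). Trim7, Trim15, Trim16, Trim17, Trim46, Trim47, Trim59, Trim62 and Trim68 averaged 0.435 to 0.96 TPM and passed the count minimum described next.

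The spread between the replicates was measured as the log2 ratio of replicate 1 over replicate 2 from TMM-scaled counts (a library-size scaling), over genes averaging at least 10 counts. Of the 68 members 43 passed, with a median ratio of 0.03, 23 above 0 and 20 below. The median size of the ratio was 0.38, against 0.35 for 11355 nuclear protein-coding genes. More than a 2-fold difference was seen for 3 members, against 8.69% of protein-coding genes (5.02% higher and 3.67% lower in replicate 1). Trim46, an axonal microtubule protein, had 104 counts in replicate 1 and 26 in replicate 2 and a log2 ratio of 1.43 (95% counting interval 0.81 to 2.12). Trim30b had 1947 and 606 counts and a ratio of 1.13 (0.99 to 1.26), which was 0.96 with library totals and 0.85 by the second quantification, within 2-fold in both. With library totals Trim65, at -1.06, took its place beyond 2-fold. Trim43c, of a family known from preimplantation embryos, had 75.9 and 168 expected counts and a ratio of -1.69 (-2.11 to -1.30).

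The next largest ratios were 0.95 for Trim30c, 0.75 for Trim36 and 0.50 each for Trim21 and Trim14. By the second quantification Trim30c was at 1.28, beyond 2-fold. At the other end stood Trim65 at -0.89, Trim32 at -0.77, Trim47 at -0.68, and Trim68 and Trim59 at -0.61 each. The counting interval, taken on rounded expected counts, left out 0 for 32 of 43 members, against 59.4% of protein-coding genes. Trim43c shares 50.2% of its words with Trim43b and 45.0% with Trim43a, 71.8% with any gene. By the second quantification Trim43b had 57.1 and 138 estimated counts, against 3.04 and 10 by the first. Trim43c also lies across 9330159M07Rik on the opposite strand, which was at 9.81 and 13.2 TPM and with which it shares 33.2% of its words. Trim46 shares 5.48% with the opposite-strand Krtcap2, at 2.92 and 3.59 TPM. Their part in these ratios was not tested.

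Interferon-associated members were mostly higher in replicate 1. Of 13 measured, 12 had a ratio above 0, against 54.0% of protein-coding genes, with a median of 0.40; the exception was Trim5 at -0.25. The other members had a median of -0.19, with 11 of 30 above 0. Ratios of protein-coding genes moved with abundance: their median was -0.09 at 10 to 30 counts, 0.13 at 1000 to 3000, 0.27 at 3000 to 10000 and 0.45 at 10000 to 30000. Set against the median of their own count range, 11 of 13 interferon-associated members and 10 of 30 others were above it, by a median of 0.25 for the interferon-associated members, while the others differed by a median of -0.23. Trim30a, with 20477 and 13607 expected counts, had a ratio of 0.03, which was 0.42 below the median of its count range. The replicates also differed in RNA input, whose part in these ratios was not tested. By deposited TPM the median ratio of protein-coding genes was -0.30, that of interferon-associated members 0.05 and that of the others -0.59. A TPM can be lower in replicate 1 where the scaled count is higher. The ratio of Trim30a was -0.30 by TPM and 0.03 by counts, and that of Trim28 was -0.62 and 0.19. Isoform shares of Trim28 also differed between the libraries, and their part was not tested.

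**Figure D3:**
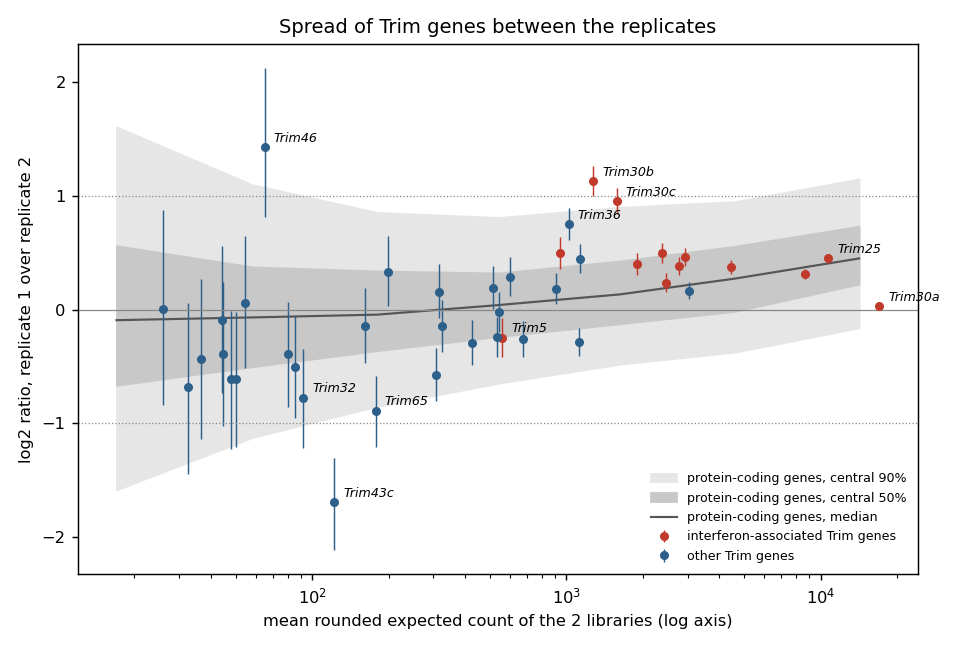
Log2 ratio of replicate 1 over replicate 2 for the 43 Trim genes measured, against their mean count on a log axis; bars are 95% counting intervals, red marks interferon-associated genes, and the grey bands hold the central 50% and 90% of protein-coding genes around their median line. Trim46, Trim30b and Trim43c lie beyond the dotted lines at 1 and -1.

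Nuclear RNA holds unspliced and partly spliced transcripts, and the annotation carries isoforms that keep an intron. For the 13 members with such an isoform, a protein-coding one and at least 1 TPM in both libraries, the retained-intron share of the gene's TPM had a median of 33.5% in replicate 1 and 34.5% in replicate 2. The same medians over 5519 protein-coding genes were 28.8% and 32.6%. In 4 members the mean share was above 50%, against 20.4% of those genes. Trim3 had 64.7% in replicate 1 and 66.1% in replicate 2, and Trim28 had 54.4% and 58.5%. Trim21 had 53.6% and 48.6%, and Trim24 had 52.0% and 49.8%. Trim21 and Trim24 therefore crossed 50% in 1 library only. Next were Trim39 at 42.2% ± 3.60, Trim33 at 39.1% ± 6.49, Trim26 at 34.5% ± 1.36 and Trim27 at 31.1% ± 2.87 (SD, n = 2). TPM is length-normalised, so a short isoform takes a larger share of TPM than of counts. The 600-base Trim3-209 held 30.6% and 41.5% of TPM from 59.68 and 65 of the gene's 592 and 475 expected counts. The 634-base Trim21-205 held 29.4% and 37.8% from 276 and 161 of 3206 and 1543. The 4718-base Trim39-204 held 39.7% and 44.8% from 393 and 241 of 770 and 428. A share of TPM above 50% is therefore not a share of reads.

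Trim30a had 7.13% in replicate 1 and 6.18% in replicate 2, the lowest of the 13. Trim30a had these on the 314-base Trim30a-203, from 45 and 25 expected counts. By the second quantification it averaged 23.6%, and Trim12a, at 16.6%, was lower. Its isoform Trim30a-201 carried 91.5% and 93.4% of its TPM. By mean share, the highest isoform was protein-coding in 21 of the 28 members at or above 1 TPM, against 82.4% of protein-coding genes, a retained-intron form in 5 and a processed transcript, a form with no annotated reading frame, in 2. In replicate 1 alone these numbers were 24, 3 and 1. In Trim26 the processed transcript Trim26-209 held 41.7% and 52.9% and the protein-coding isoforms together 24.8% and 11.7%. In Trim12a the 562-base processed transcript Trim12a-206 held 32.5% and 43.1%, beside 36.1% and 25.8% on the protein-coding Trim12a-203. The leading isoform was not the same in both libraries for 5 of the 28, Trim11, Trim12a, Trim14, Trim21 and Trim28, against 22.6% of protein-coding genes. In Trim14, Trim14-201 held 59.7% and 31.5%, and Trim14-202 held 31.99% and 56.1%. Over the 27 members with several isoforms, the median protein-coding share was 92.5% by this quantification and 75.8% by the other.

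**Figure D4:**
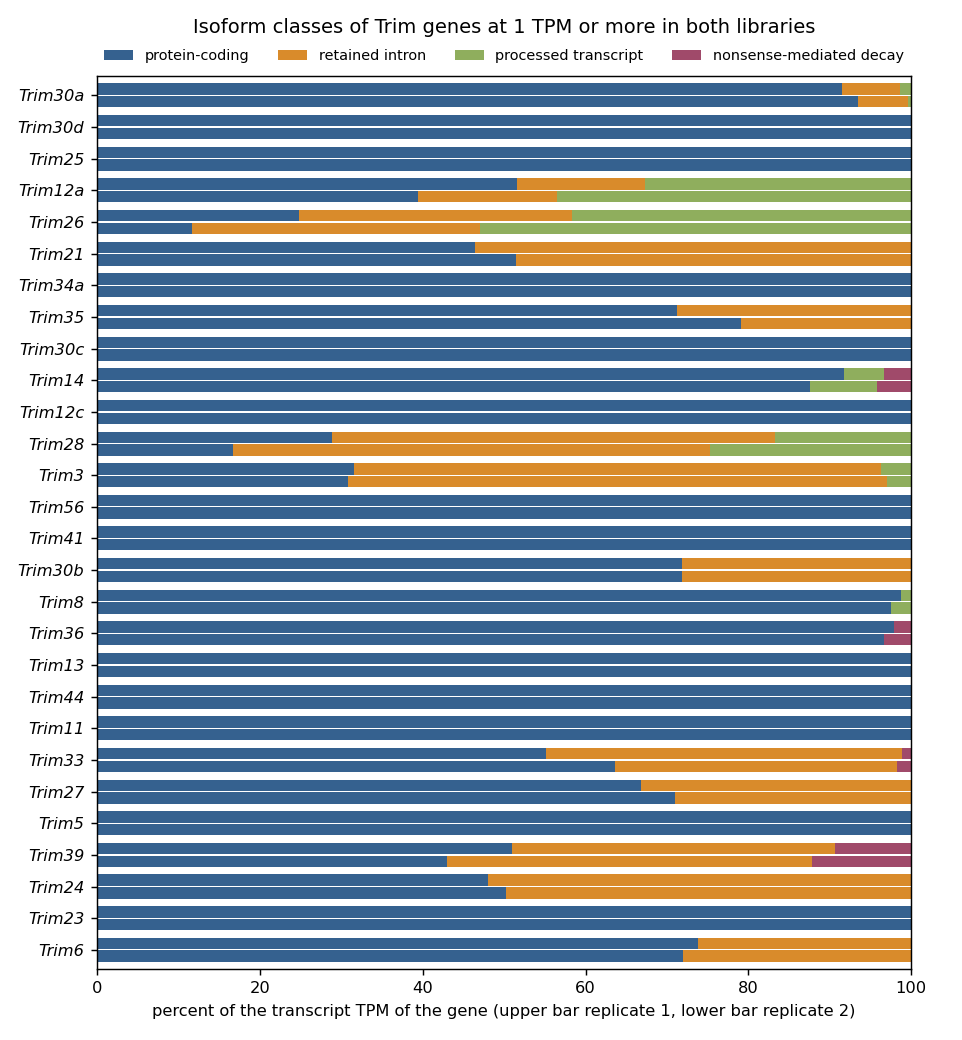
Percent of each gene's transcript TPM on protein-coding, retained-intron, processed-transcript and nonsense-mediated decay isoforms, for the 28 Trim genes at or above 1 TPM in both libraries, ordered by mean TPM; the upper bar is replicate 1 and the lower bar replicate 2. Retained-intron isoforms take over 50% on average in Trim21, Trim28, Trim3 and Trim24.

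The second deposited quantification gave a like order. After rescaling both to protein-coding and long non-coding genes, 6 of 49 members differed by more than 2-fold, against 25.5% of protein-coding genes, and all 6 were higher by the second. Trim30a stayed the highest, with a log2 ratio of second over first of -0.19. Trim52 had 0 TPM by the first in both libraries and 4.52 and 6.75 TPM by the second, all on the 584-base processed transcript Trim52-202 and none on its protein-coding isoform. Trim63 had 0 by the first and 0.429 and 1.90 TPM by the second, all on its retained-intron and processed isoforms. The others beyond 2-fold were Trim50, Trim67, Trim43b and Trim34b, with a log2 ratio of second over first of 2.63, 2.21, 2.00 and 1.21. The counts of Trim67 by the second were all on its protein-coding isoform Trim67-202. Trim34a is crossed by the antisense gene Gm47248, which shares 21.4% of its words and by the first had 0.06 TPM (replicate 1) and 9.03 TPM (replicate 2), a log2 ratio of -6.40, but near 0 on average by the second. The deposited TPM lay outside the deposited credibility interval of its own gene in at least 1 library for 27 of the 68 members, against 50.5% of protein-coding genes. A TPM of 0 falls below any lower bound above 0, so the 27 include all 13 members with no count. Among the 22015 protein-coding genes, 7520 had no rounded count in either library. Of the members at or above 1 TPM in both libraries, 3 of 28 lay outside their interval, Trim30a, Trim30d and Trim25, against 8.47%.

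**Figure D5:**
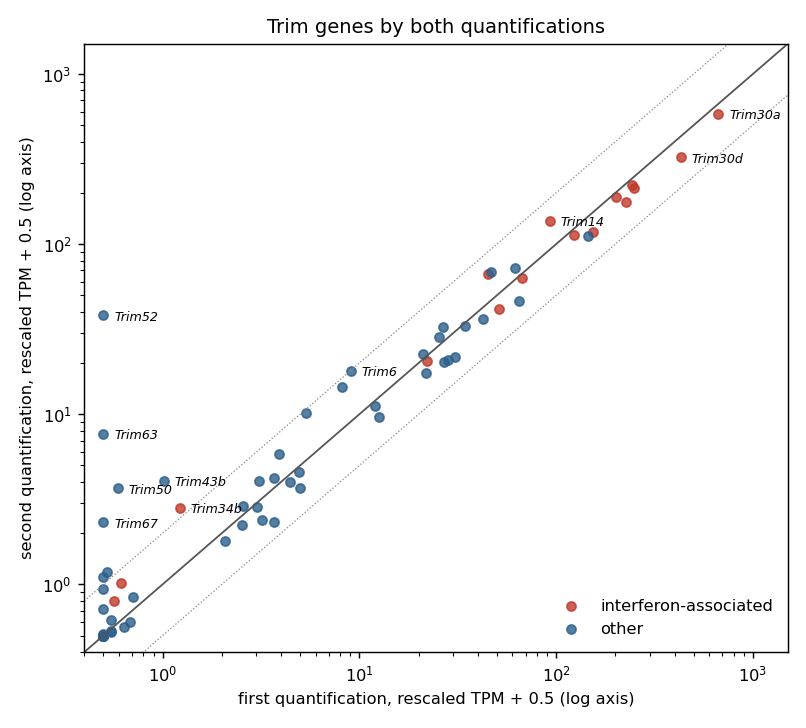
Rescaled mean TPM plus 0.5 of the 68 Trim genes by the first (x) and second (y) quantification, both on log axes; the solid line marks equal values, the dotted lines a 2-fold difference, and red interferon-associated genes. Trim52 and Trim63 sit at the left edge, at 0 by the first, and the abundant members lie along the solid line.

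Relatives without a Trim name and the proteins TRIM ligases work with were also read. Of 7 relatives, 3 were at or above 1 TPM in both libraries, against 38.6% of nuclear protein-coding genes. Mefv, the pyrin gene, had 47.3 TPM (replicate 1) and 39.9 TPM (replicate 2). Pml, of the nuclear bodies, had 38.3 and 27.5 TPM, and Mid1 had 26.2 and 20.1 TPM. Bspry had 3 counts in replicate 1 and none in replicate 2, and Mid2, Triml1 and Triml2 had none. A further list held 17 E1 and E2 enzymes, which charge and carry ubiquitin or its relatives. All 17 were at or above 1 TPM in both libraries, against the same 38.6% of protein-coding genes. The highest were Uba7, the activating enzyme for ISG15, with 149 and 72.1 TPM and a log2 ratio of 1.47, and Ube2d3, an E2 used by many RING ligases, with 64.0 and 92.0 TPM. The lowest were Uba6 with 2.93 and 3.61 TPM and Ube2e2 with 2.40 and 2.75 TPM. The list's median ratio was -0.27.

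A list held 17 genes for sensors, adaptors, kinases and factors on which TRIM proteins act. All 17 were at or above 1 TPM in both libraries, against 38.6% of nuclear protein-coding genes. The list was drawn up with earlier results of these data known. Irf7, a regulator of type I interferon genes, had 315 TPM in replicate 1 and 151 TPM in replicate 2, and Ifih1, the sensor MDA5, had 162 and 111 TPM. Ddx58, which encodes the Trim25 substrate RIG-I, had 100.04 and 69.3 TPM. The substrates of Trim30a stood far apart: Tab2 had 33.3 and 43.1 TPM, and Tab3 had 2.61 and 2.21 TPM, the lowest of the list with Mavs at 1.83 and 3.73 TPM. The list's median ratio was 0.26, and Irf7 alone exceeded 2-fold, with 1.34. Members described as enhancers of innate signalling summed to 100.2 TPM in replicate 1 and 97.6 TPM in replicate 2 over 9 genes, of which 5 were at or above 1 TPM. Those described as brakes summed to 216 and 250 TPM over 11 genes, of which 9 were at or above 1 TPM and Trim30a was the highest. Both counts also stand against 38.6% of nuclear protein-coding genes.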

How the data were processed

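Values come from the authors' deposited tables, 1 library per table, on mm10 with the GENCODE M21 annotation, per the file headers and the listings deposited with them. In the first quantification, whose columns are named as RSEM names them, the authors give per gene and transcript an expected count, in which shared reads are split by a model, a TPM over all features, and the percent of a gene's TPM on each transcript, with bounds of a credibility interval of TPM. In the second, named as by kallisto, the authors deposited estimated counts and TPM per transcript, summed here per gene. The aligner, versions and strand setting were not given in the sources used here, so reads shared by opposite-strand genes could not be assigned by strand.

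Entries that name no gene (0.766% and 0.272% of expected counts) were left out of library sizes. Expected counts were rounded and scaled with TMM factors of edgeR 4.0.16 (0.944 and 1.06, over genes averaging at least 10 counts), and ratios of replicate 1 over replicate 2 used a prior count of 0.5. Counting intervals are exact binomial 95% intervals (Clopper-Pearson, scipy 1.17.1) and, like the floors of 3 counts, cover counting error only. Retained-intron shares are percents of a gene's transcript TPM. DESeq2 1.42.0 size factors, library totals, other minimums and priors, rescaled TPM, the second quantification and each replicate alone were the alternatives. Words of 31 bases were compared over both strands of all annotated transcripts.

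Members, lists and tests were chosen with earlier results of these data known. Named were members of at least 5 TPM with both values, all others by group, the 6 largest ratios in each direction, the 8 highest retained-intron shares, members whose quantifications differed more than 4-fold in deposited mean TPM with at least 1 such TPM by either, and the 2 highest and 2 lowest of each partner list. Ddx58 and Tab2 were named outside this rule, as substrates, after their values were seen, as were the other members whose rescaled quantifications differed more than 2-fold and those named for isoform switches or for counts in the second quantification.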

Additional observations from a re-analysis of the deposited data

How the results depend on the processing

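The count of members at or above 1 TPM in both libraries was 28. It was 43 with TPM rescaled over protein-coding and long non-coding genes. The count beyond 2-fold, 3, was 13 with no filter on counts and 7 by the second quantification. Neither is over the same members as the main count. The 7 include Trim43b, Trim50, Trim58 and Trim63, which did not pass the count minimum by the first quantification. The share of all protein-coding genes was not taken under either setting. Trim30b was within 2-fold with library totals and by the second quantification, and Trim30c was beyond it by the second, at 1.28. The median log2 ratio of replicate 1 over replicate 2 over all members, 0.03, was -0.14 with library totals, -0.018 by the second quantification and -0.27 by deposited TPM. That of interferon-associated members, 0.40, was 0.23 with library totals, 0.64 by the second quantification and 0.045 by deposited TPM, and stayed above 0 in each; over those outside the chromosome 7 cluster, an alternative chosen after seeing the data, it was 0.45. That of the other members, -0.19, was -0.59 by deposited TPM. The median retained-intron share, 34.5%, was 42.8% by the second quantification, 32.8% at a minimum of 5 TPM, and 33.5% to 34.5% in the libraries taken singly. The median protein-coding share, 92.5%, was 75.8% by the second quantification. The summed TPM, 693, was 3219 rescaled, 439 by the second quantification and 2946 by the second rescaled, the last also chosen after seeing the data. The cause of these shifts was not tested, beyond the rescaling itself. With 1 group of 2 replicates the depth sets counting error only, and the spread between cultures cannot be estimated. No paired analysis was possible because there is 1 group.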

Other observations

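Some member genes are crossed by others in the annotation: 39 overlap another gene, 27 of them a gene on the opposite strand. The share of all genes that overlap another was not counted, so these numbers cannot be called particular to the family. Trim30d holds the processed pseudogene Gm16464 on its own strand, at 21.60 TPM (replicate 1) and 21.58 TPM (replicate 2). Trim17, at 0.55 and 1.15 TPM, overlaps the histone gene Hist3h2a, at 8.80 and 6.57 TPM, on the same strand and shares 18.2% of its 31-base words with it. Trim13 shares 28.7% of its words with the annotated gene Gm9359.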
